A study of Mus musculus with 6 samples.

Results

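Cartpt, Ucn and Cck are the genes of 3 peptides, CART, urocortin 1 and cholecystokinin, that mark the centrally projecting Edinger-Westphal nucleus. They were selected by gene symbol alone, each matched 1 row, and they are 3 of the 5538 genes with a value in every library. The samples were 6 RNA-seq libraries from the perioculomotor region (pIII) of the C57BL/6 mouse midbrain. IP 1 to IP 3 hold RNA captured with antibodies to eGFP, and Input 1 to Input 3 are read here as RNA of the same tissue without that capture. All libraries, controls included, came from mice that carried CreER driven by the Fos promoter and a Cre-dependent eGFP-L10a, a ribosomal protein with a fluorescent tag. Every mouse was kept awake for 6 hr and then slept for 3 hr, with 4-OHT, the drug that frees CreER to act, given before either the waking or the sleep phase. The series text speaks of the neurons labelled in recovery sleep (RS-eGFP neurons), while the library labels do not give the phase. A library is a pool of 4 to 5 mice. The mouse age and sex are not given in the sources used here. Because Fos drives the label, the tag marks cells that were active near the time of the drug, whatever their type, so the IP is not a sort of Edinger-Westphal neurons.

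The centrally projecting Edinger-Westphal nucleus is a column of peptide-releasing neurons beside the oculomotor nucleus. It is separate from the cholinergic Edinger-Westphal neurons that control the pupil and the lens. Urocortin 1 belongs to the corticotropin-releasing factor family and acts on CRF receptors, CART is a peptide linked to feeding and stress, and cholecystokinin acts on G-protein-coupled receptors and is also made by other midbrain neurons, dopamine neurons among them. All these peptides are cut from larger precursors inside dense-core vesicles.

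In mouse build mm10 (GENCODE M21), Cartpt (ENSMUSG00000021647) lies on chromosome 13 from 99898489 to 99901091, Ucn (ENSMUSG00000038676) on chromosome 5 from 31138063 to 31138829, and Cck (ENSMUSG00000032532) on chromosome 9 from 121489824 to 121495694. Each is on the minus strand and no other annotated gene overlaps it, though how reads were assigned to it was not examined. Ucn is the shortest, with 504 exonic bases in 2 exon blocks, against 1277 for Cartpt and 1305 for Cck. TPM is per transcript length, so the levels of the 3 genes may be compared.

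The cyclic AMP response element, TGACGTCA, is a site known for transcription driven by neuronal activity and by cyclic AMP. It was searched on both strands in the 250 bases before each gene's RefSeq start (GRCm38.p6, all 3 genes matched). The 30 bases around the match are shown, because this is a stretch the 3 genes have in part in common. They are written 5′ to 3′ on the gene's strand, and capitals mark TGACG or its reverse complement CGTCA, which overlap within the full element.
Cartpt, chr13:99900777-99900806: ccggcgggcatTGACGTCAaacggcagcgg
Ucn, chr5:31138921-31138950: atgttcttcgcTGACGTCAgtcggagctgt
Cck, chr9:121495726-121495755: gtcctgctggactgCGTCAgcactgggtaa
Cartpt and Ucn held the full element, 112 to 105 and 44 to 37 bases before the start. Cck held only CGTCA, 47 to 43 bases before it. The Cartpt stretch lies inside the longer first exon of a second annotated Cartpt transcript, in its UTR. The RefSeq start of Ucn, at 31138895, lies outside the GENCODE gene given above, which ends at 31138829. Distances from the GENCODE start of Ucn would therefore be longer. Of all 32851 RefSeq windows of this length, 1.55% held TGACGTCA and 17.8% held TGACG or CGTCA. Among the 5675 windows of genes in the table the shares were 3.17% and 29.4%. The AP-1 letters TGANTCA were in none of the 3 windows and in 6.75% of all windows. TATAA was found for Ucn alone of the 3 (22.8% of all windows) and the E-box CACGTG for Cck alone (6.02%). These matches describe letters, and no factor's binding was measured here.

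The libraries differed in ways that bear on every value below. The median gene stood between 27.7 TPM (IP 1) and 67.2 TPM (Input 2), and Input 3, at 31.1 TPM, was far from the other Inputs. The most abundant gene was the predicted gene Gm26809 in each IP library (42139 to 59048 TPM) and Gm42427 in Input 3 (97660 TPM). In Inputs 1 and 2 it was mt-Ts1, at 10671 and 10769 TPM. TPM share a common total, and the part of these genes in the TPM of the others was not tested. The dopaminergic markers that could be measured (5 of 10) summed to 88.0 to 532 TPM in the IP libraries, to 1588 and 1284 TPM in Inputs 1 and 2, and to 148 TPM in Input 3. The serotonergic markers (3 of 7) ran from 176 to 1051 TPM over the IP libraries, with 2572 and 1685 for Inputs 1 and 2 and only 152 for Input 3. Cholinergic and motor neuron markers (5 of 9, with Chat and Isl1) went another way in TPM. Their sums were 412 to 643 TPM over the IP libraries, 186 and 272 for Inputs 1 and 2 and 326 for Input 3. Relative to the median gene, Slc18a3 had 5.93, 3.81 and 2.59 across IP, against 0.67, 1.03 and 5.68 across the Inputs. Its groups thus overlapped, as did those of Slc5a7, while Chat, Isl1 and Prph were higher in every IP than in every Input library. Sums over 5 of 10 astrocyte markers were 704 to 2031 TPM over the IP libraries, 3470 and 3792 for Inputs 1 and 2 and 720 for Input 3. Over 6 of 10 oligodendrocyte markers they were 365 to 4437, 4108 and 4877, and 536. Aldoc made up most of each astrocyte sum. It had 603, 1714 and 1794 TPM across IP, against 2895, 3191 and 596 across the Inputs. Ntsr2, Agt and Glul also had Input 3 lowest and Inputs 1 and 2 highest. Gfap did not: it had 14.9, 20.8 and 23.6 TPM across IP, against 21.7, 35.8 and 67.3 across the Inputs. GABAergic (3 of 5), glutamatergic (1 of 3), microglial (1 of 9) and endothelial (1 of 8) lists summed to 420 to 692, 8.70 to 65.3, 12 to 15.7 and 50.3 to 278 TPM in IP. Their sums in Input were 454 to 596, 24.6 to 58.2, 15.3 to 35.6 and 21.9 to 35.4 TPM. The GABAergic sum joins genes of unlike course. Pvalb had 391, 359 and 387 TPM across IP, against 125, 249 and 427 across the Inputs. Gad1 had 19.1, 150 and 229 against 214, 146 and 147, and Gad2 had 10.25, 71.9 and 76.4 against 115, 88.7 and 22.4. Slc6a3, Fev, Phox2a, Slc32a1 and Aqp4 were among the defining markers with no value in the table used here. The part of these shifts in the values of Cartpt, Ucn and Cck was not tested. In tissue RNA, fewer cells of a type and less RNA per cell cannot be told apart. The transcript of the tagged protein itself, Rpl10a, had 559, 365 and 439 TPM across IP, against 117, 61.8 and 36.2 across the Inputs, so every IP library was above every Input, though a processed pseudogene may share its reads. Fos had 7.66, 19.1 and 16.0 TPM across IP, against 12.2, 14.7 and 25 across the Inputs, and the groups overlapped. Relative to the median gene Fos stood at 0.28, 0.34 and 0.31 in IP, above Inputs 1 and 2 (0.19 and 0.22) and below Input 3 (0.81).

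Cartpt was the most abundant of the 8 listed neuropeptide precursor transcripts with a value, in every library. The values of IP 1, IP 2 and IP 3 were 809, 939 and 1003 TPM, and those of Inputs 1, 2 and 3 were 2237, 2769 and 415 TPM. In TPM the IP libraries were close to each other, spanning 1.24-fold, while the Inputs spanned 6.68-fold, with Input 3 lowest of all 6 and Inputs 1 and 2 highest. Input 3 was lowest of the 6 libraries for each of the 3 peptides, as for 40.4% of all genes. Among all genes of its library Cartpt held rank 135, 90 and 87 in IP and rank 31, 22 and 119 in Input. Mean TPM was 917 ± 98.8 in IP (SD, n = 3), 1807 ± 1235 in Input (SD, n = 3), and 2503 ± 377 in Inputs 1 and 2 alone (SD, n = 2). IP was thus 0.508 of Input over all libraries and 0.366 of Inputs 1 and 2.

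Ucn followed in second place among the 8 listed precursors in every library. Scg2, listed with the genes of peptide processing and vesicles, was not ranked. It had 876 TPM in Input 1 and 70.0 in IP 1, against 440 and 204 for Ucn. Ucn had 204, 226 and 232 TPM in the IP libraries and 440, 619 and 86.2 TPM in the Inputs. In TPM its IP values were the tightest of the 3 genes, spanning 1.14-fold (relative to the median gene they were the widest, at 1.84-fold), and again they lay above Input 3 and below Inputs 1 and 2. The mean was 220 ± 14.9 TPM in IP (SD, n = 3) and 381 ± 271 in Input (SD, n = 3), a quotient of 0.578, or 0.417 against the 529 ± 127 TPM of Inputs 1 and 2 (SD, n = 2).

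Cck was the least abundant of the 3, and in TPM its IP values spread most (relative to the median gene they spread least, 1.48-fold, the median gene of IP 1 being low too). IP 1, IP 2 and IP 3 held 51.2, 155 and 134 TPM of it, and the Inputs 235, 399 and 48.2 TPM. IP 1 was 3.03-fold below IP 2 and nearly as low as Input 3. The mean was 113 ± 54.9 TPM in IP (SD, n = 3), 227 ± 176 in Input (SD, n = 3) and 317 ± 116 in Inputs 1 and 2 (SD, n = 2), so IP was 0.499 of Input and 0.358 of Inputs 1 and 2. In every library the order of levels was Cartpt, then Ucn, then Cck. The Ucn and Cck ranges over the 6 libraries overlap, but within each library Cck was the lower.

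**Figure D1:**
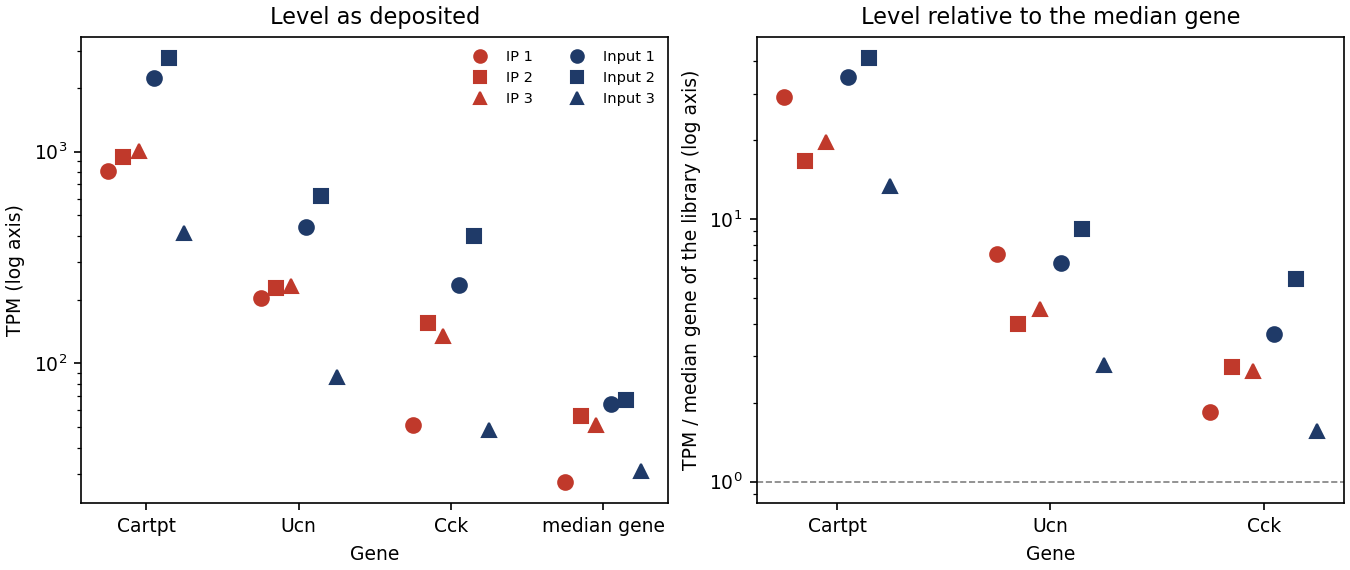
TPM (left) and TPM divided by the median gene of the same library (right), both on log axes, for Cartpt, Ucn and Cck in 3 IP libraries (red) and 3 Input libraries (dark blue), 1 point per library, with the median gene itself at the right of the left panel. Input 3 is lowest and Inputs 1 and 2 highest for each gene in TPM, and on the right the IP 1 point of Ucn (7.36) rises above Input 1 (6.83).

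Scaling each library to its own median gene narrowed the spread over the Inputs for each gene, from 6.68-fold to 3.09-fold for Cartpt, 7.18-fold to 3.32-fold for Ucn and 8.27-fold to 3.83-fold for Cck. Within IP it widened the spread of Cartpt to 1.76-fold and of Ucn to 1.84-fold, with IP 1 highest, and narrowed that of Cck to 1.48-fold, with IP 1 lowest. Cartpt stood at 29.2, 16.6 and 19.7 times the median gene in IP and at 34.8, 41.2 and 13.4 times in Input. Ucn stood at 7.36, 4.01 and 4.54 times in IP and at 6.83, 9.21 and 2.78 times in Input. Cck stood at 1.85, 2.74 and 2.63 times in IP and at 3.65, 5.94 and 1.55 times in Input. Input 3 was again the lowest library for each of the 3 genes, as for 25.6% of all genes on this scale. Against Inputs 1 and 2, IP was 0.575 for Cartpt, 0.661 for Ucn and 0.502 for Cck, nearer to 1 than in TPM. All IP libraries were below both of these Inputs for 3 of 3 genes in TPM, where 53.1% of all genes were. Relative to the median gene this held for Cartpt and Cck but not for Ucn, where 20% of all genes were so placed. With Input 3 lowest, IP between and Inputs 1 and 2 highest, the full order seen in TPM for all 3 genes was shared by 20.6% of genes. On the median scale it held for Cartpt and Cck, against 4.8% of genes.

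The comparison of IP with Input asks whether these transcripts were richer in the tagged neurons than in the tissue around them. Tested over all genes with limma on log2(TPM + 1), none of the 3 passed in either direction. The log2 difference, IP minus Input, was -0.58 for Cartpt (SE 0.80, 95% interval -2.31 to 1.14), -0.38 for Ucn (SE 0.70, -1.88 to 1.12) and -0.69 for Cck (SE 0.75, -2.30 to 0.91), each with a limma adjusted p of 0.999. The median gene differed by -0.23 on the same scale. Of all genes 0% were called higher and 0% lower, with 53 each way at an unadjusted limma p of 0.05. The IP values lay above all 3 Inputs for 0 of the 3 genes (1.7% of all genes) and below all 3 for 0 (6.21% of all genes). Each of the 3 intervals holds values on both sides of 0. Input 2 also bore on the direction: without it the differences were -0.08 for Cartpt, 0.17 for Ucn and -0.06 for Cck. With libraries centred on the median gene the differences were -0.34, -0.13 and -0.45, and none was called.

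Against Inputs 1 and 2 alone the differences were larger, and still none was called. They came to -1.45 (SE 0.34) for Cartpt, -1.24 (SE 0.32) for Ucn and -1.57 (SE 0.53) for Cck, with limma adjusted p of 0.228, 0.252 and 0.315. The median gene was at -0.60 there, and 0.343% of genes were called higher and 0.0361% lower. Among all genes, 4.01%, 8.04% and 2.73% had a lower difference than Cartpt, Ucn and Cck. After centring the differences were -0.85 (SE 0.33), -0.64 (SE 0.34) and -0.97 (SE 0.33), with limma adjusted p of 0.340, 0.466 and 0.276 and 0.289% of genes called higher and 0.0181% lower. So the size of the difference rests on Input 3: with it, each gene's mean difference was less than its SE.

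When IP 1, the IP library with the lowest median gene, was left out along with Input 3, all 3 genes were called lower in IP. The log2 differences of IP 2 and IP 3 from Inputs 1 and 2 were -1.36 (SE 0.16) for Cartpt, -1.18 (SE 0.19) for Ucn and -1.08 (SE 0.26) for Cck, with limma adjusted p of 0.00343, 0.0131 and 0.0308. The background there was high, with 16.9% of all genes called lower and 2.18% higher, and the median gene at -0.33. With centred libraries Cartpt (-1.07, SE 0.19, limma adjusted p = 0.0146) and Ucn (-0.90, SE 0.21, limma adjusted p = 0.0407) were called lower, where 2.89% of genes were called lower and 3.38% higher. Cck was not (-0.79, SE 0.24, limma adjusted p = 0.0968). Which libraries to leave out was chosen with their values known, and these comparisons share their libraries with those above. Relative to the median gene, IP 1 was the highest IP library for Cartpt and Ucn and the lowest for Cck. Input 3 was the lowest Input for each gene. Leaving both out therefore moves the centred differences of Cartpt and Ucn down by the choice itself.

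**Figure D2:**
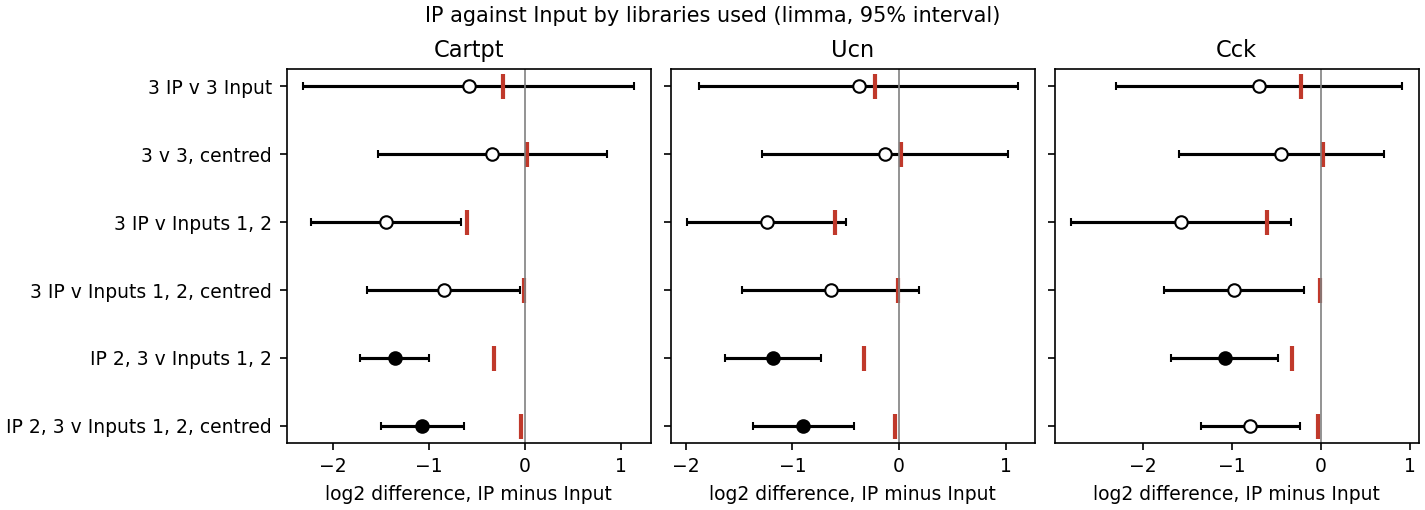
Log2 difference of IP minus Input (horizontal axis) for Cartpt, Ucn and Cck under 6 choices of libraries and scaling, as limma estimates with 95% intervals. Filled circles passed an adjusted p of 0.05, open circles did not, and the red tick is the median of all genes. The estimates lie below 0 in each case shown, and only the comparisons without IP 1 and Input 3 hold filled circles.

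Ratios between the peptides within a library are not changed by multiplying the library by a constant, though quantile normalization, which reshapes each library, does change them. Ucn stood at 25.2%, 24.1% and 23.1% of Cartpt in IP and at 19.7%, 22.3% and 20.8% in Input. Although both genes spread widely in Input (6.68-fold and 7.18-fold), their ratio moved by only 1.28-fold over all 6 libraries. Every IP value was above every Input value, 24.1% ± 1.04 against 20.9% ± 1.35 (SD, n = 3 each), a log2 difference of 0.21. An exact two-sided permutation test gave p = 0.1, the smallest that 3 against 3 libraries allow (adjusted p = 0.3 over 3 ratios). Under quantile normalization the difference was 0.62. Of the 5537 other genes, 6.63% had a ratio to Cartpt that was higher in every IP than in every Input library. The gap is small: the nearest IP and Input libraries were 0.05 log2 units apart. In Input 3 alone, the ratio of 20.8% fell between those of Inputs 1 and 2, while the level of Cartpt was 6.03-fold and that of Ucn 6.14-fold below their means in Inputs 1 and 2.

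Cck kept less closely to the other peptides, and IP 1 set it apart. Cck stood at 6.33%, 16.5% and 13.4% of Cartpt in IP and at 10.5%, 14.4% and 11.6% in Input. Its ratio to Ucn was 25.2%, 68.5% and 58.0% in IP and 53.4%, 64.5% and 56.0% in Input. In both ratios IP 1 was the lowest of the 6 libraries and IP 2 the highest, so the groups overlapped. The log2 difference was -0.11 for Cck to Cartpt and -0.32 for Cck to Ucn, each with an exact two-sided permutation p of 0.9 (adjusted p = 0.9). Without IP 1 the differences were 0.30 and 0.13, and under quantile normalization that of Cck to Cartpt was 0.46. In TPM, IP 1 was the lowest IP library for 80.8% of all genes, and relative to the median gene for 38.6%. On the latter scale it was lowest for 5 of 5 measured dopaminergic markers, 3 of 3 serotonergic, 2 of 3 GABAergic, 2 of 5 cholinergic and motor, 4 of 5 astrocyte and 6 of 6 oligodendrocyte markers. The same held for 1 of 1 glutamatergic, 0 of 1 microglial and 0 of 1 endothelial markers. It also held for 1 of 5 other neuropeptide precursors and 8 of 14 genes of peptide processing and vesicles. The part of all these genes in the low Cck of IP 1 was not tested. Across the Inputs alone, Cck to Ucn moved less, between 53.4% and 64.5%.

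**Figure D3:**
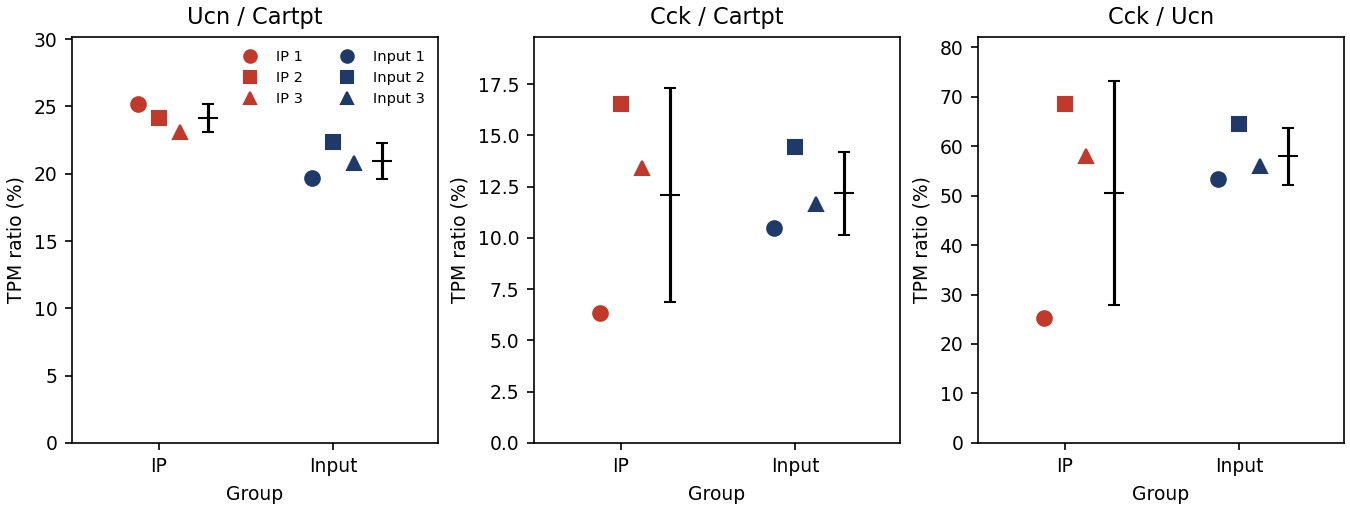
TPM ratios between the peptides in percent (vertical axes from 0) for each IP (red) and Input (dark blue) library, with the group mean and SD in black (n = 3). Ucn to Cartpt lies between 19.7% and 25.2% with IP above Input, while IP 1 is the low point in both ratios that hold Cck.

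The 3 genes made up most of the summed TPM of the 8 listed neuropeptide precursors with a value. Of a list of 28 other precursors, 5 had a value (Calca, Calcb, Gal, Sst and Penk). Of the summed TPM of these 8 genes, Cartpt, Ucn and Cck held 74.9%, 75.4% and 76.5% over the IP libraries. The shares for Inputs 1 and 2 were 87.8% and 88.5%, and that for Input 3 was 74.0%. IP and Input 3 thus had alike shares, below those of Inputs 1 and 2. Cartpt alone held 53.6% to 57.0% over the IP libraries, with 67.4% and 64.7% for Inputs 1 and 2 and 55.9% for Input 3. Calca, a gene of the peptide CGRP, had 105, 97.0 and 90.6 TPM across IP, against 31.3, 33.9 and 28.2 across the Inputs. It lay apart from the 3 peptides, being higher in every IP than in every Input library. In TPM its Input 3 value was only 1.16-fold below the mean of the other Inputs. Relative to the median gene it was 1.83-fold above that mean, at 0.91 against 0.49 and 0.51. Calcb, its paralog, had 101, 108 and 86.1 TPM across IP, against 25.8, 44.0 and 45.5 across the Inputs, and reads may be split between the paralogs. Sst (somatostatin) had the Cartpt-like order, with 45.1, 57.0 and 66.1 TPM across IP, against 174, 181 and 17.8 across the Inputs. Penk (enkephalin) had 37.8, 105 and 105 TPM across IP, against 151, 204 and 81.4 across the Inputs. None of the 5 passed in limma over all genes with 3 libraries in each group. Without IP 1 and Input 3, with centred libraries, limma called Calca (log2 1.78, adjusted p = 0.00119), Calcb (1.77, 0.00563) and Gal (1.66, 0.00373) higher and Sst (-1.23, 0.0105) lower, against 3.38% and 2.89% of all genes.

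**Figure D4:**
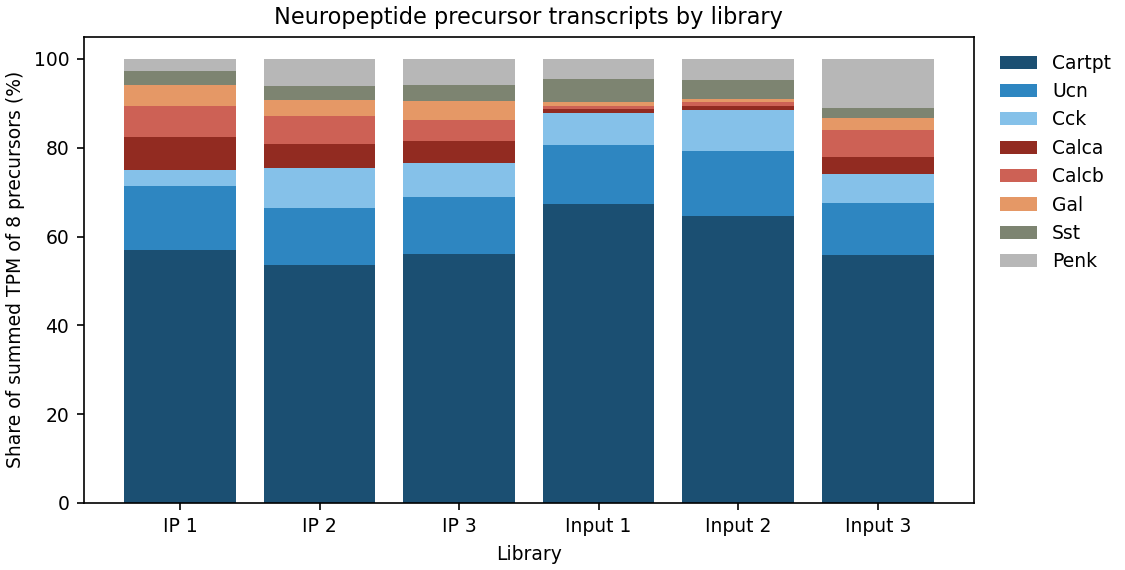
Share of the summed TPM of 8 neuropeptide precursor genes (vertical axis, percent) in each library, stacked from Cartpt at the bottom. Cartpt, Ucn and Cck (blue) reach 74.0% to 76.5% in the IP libraries and Input 3, and 87.8% and 88.5% in Inputs 1 and 2, where Calca, Calcb and Gal are thin bands.

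Of the genes that turn such precursors into peptides or package them, 14 of 21 had a value, and 0 passed in limma over all genes. Their median log2 difference was -0.19 with centred libraries, against 0.02 over all genes. Against Inputs 1 and 2 alone the median was -0.29, with 10 of 14 below 0 and an all-gene median of -0.01. Cpe, a carboxypeptidase that trims the cut ends of precursors, had 167, 671 and 538 TPM across IP, against 870, 904 and 191 across the Inputs. Scg2, a granin of the vesicle core, had 70.0, 347 and 266 TPM across IP, against 876, 756 and 114 across the Inputs. Both were low in IP 1 and Input 3, as Cck was. Chga, another granin, had 211, 449 and 292 TPM across IP, against 364, 447 and 127 across the Inputs, with overlapping groups. Pcsk1n, an inhibitor of the precursor-cutting convertase PC1, had 254, 282 and 233 TPM over the IP libraries and 393, 455 and 64.1 TPM over the Inputs. Relative to the median gene its IP values were 9.20, 4.98 and 4.58, with IP 1 high, as it was for Cartpt and Ucn. In the comparison without IP 1 and Input 3 with centred libraries, 2 of the 14 (Scg2 and Scg5) were called lower and 0 higher, where 2.89% of all genes were called lower and 3.38% higher. Of the 10 relatives and receptors of the peptides, such as the CRF receptor genes Crhr1 and Crhr2 and the cholecystokinin receptor genes Cckar and Cckbr, 0 had a value here, since a gene must reach 7 TPM in all 6 libraries to have one.

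Genes with the most similar course over the 6 libraries were found by the root mean square difference of median-centred log2 values, each gene set to its own mean, among 5274 genes that are not predicted models. The nearest gene to Cartpt was Ucn, at 0.12 log2 units (r = 0.979 over 6 libraries), followed by Fxyd7 (0.14), Pdgfa (0.15), Fam213b (0.16) and Rnd2 (0.16). For Ucn the nearest was Rnd2 (0.12), then Cartpt (0.12), Fkbp2 (0.12), Acot13 (0.19) and Pdgfa (0.19). Fxyd7 is a regulator of the sodium pump and Pdgfa a growth factor, and neither is a neuropeptide gene. Cck had other neighbours: Lypd1 (0.14), Rcbtb1 (0.20), Celf6 (0.20) and Gstm1 (0.20). Cck was in place 416 from Cartpt (0.44 log2 units, r = 0.746) and in place 653 from Ucn (0.47, r = 0.701). These values describe 6 libraries that share their depth and scaling within each column, and IP 1 and Input 3 carry much of each course.

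**Figure D5:**
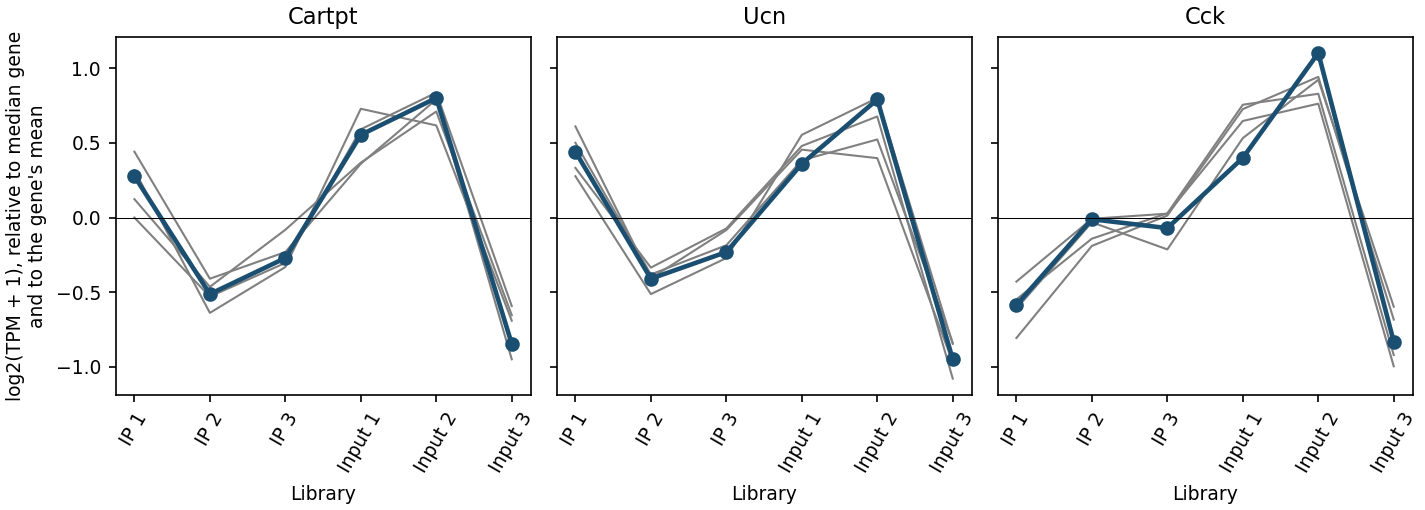
Log2(TPM + 1) relative to the median gene and to the gene's own mean (vertical axis) over the 6 libraries for Cartpt, Ucn and Cck (blue), with the 4 genes most like each in grey. Lines join libraries only to guide the eye. Cartpt and Ucn share a course that is high in IP 1 among the IP libraries, while Cck is lowest there, and all are lowest in Input 3.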

How the data were processed

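The deposited table gives TPM, transcript abundance scaled to a common total, in 6 columns, per the file headers. The authors' route to these values is known only in part: per the submitters' processing notes RSEM, DESeq and build mm10 were used, and their versions, their roles and the aligner are not given in the sources used here. TPM keep no read depth, so no counting interval is given. The table lists genes of at least 7 TPM in every library, so lower genes have no value.

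IP was compared with Input on log2(TPM + 1) with limma 3.58.1 in R 4.3.3 (group as the only term, variance trend, Benjamini-Hochberg adjustment over 5538 genes, threshold 0.05). The count test planned for count tables did not apply. A minimum mean of 1 TPM removed 0 genes. The fit was tested on simulated data with independent noise and no shifts of whole libraries, so that test does not cover libraries that stand apart, such as Input 3. Log2 differences of low genes are understated by the pseudocount. Ratios were compared by exact permutation. Nothing beyond the pooling of mice says how separate the pools were, so p-values measure the spread between libraries. The 3 members, the 12 gene lists, the named-gene rule (these 3 genes, Rpl10a, Fos, Calca, the 4 most abundant members of each list and the 5 nearest genes) and the alternatives were chosen with earlier results of these data known. Gal, Scg5 and the cell type markers named singly were chosen after the values were seen. Promoter windows came from RefSeq (GRCm38.p6). Some results under the rule are not reported here.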

Additional observations from a re-analysis of the deposited data

How the results depend on the processing

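Over 15 alternatives each, the log2 difference of IP minus Input was below 0 in 15 for Cartpt (-1.45 to -0.08), 15 for Cck (-1.57 to -0.06) and 14 for Ucn (-1.24 to 0.17), with limma adjusted p from 0.00343 to 0.9997 for Cartpt, 0.0308 to 0.9997 for Cck and 0.0131 to 0.9997 for Ucn. Leaving out 1 library in turn gave those same ranges of the log2 difference, with Input 3 left out at the lower end and Input 2 at the upper end. The lowest limma adjusted p with 1 library left out was 0.228 for Cartpt, 0.252 for Ucn and 0.315 for Cck. Ucn was at 0.17 without Input 2. Without Input 1 the values for Cartpt, Ucn and Cck were -0.23, -0.07 and -0.44, and without IP 1 Cck was at -0.20. Calls were made only without both IP 1 and Input 3: Cartpt -1.36, Ucn -1.18 and Cck -1.08, or with centred libraries Cartpt -1.07 and Ucn -0.90. Genes called higher and lower numbered 121 and 936 there, 187 and 160 with centring, and 16 and 1 without Input 3 with centring. With 1 library left out they ranged from 0 to 19 and from 0 to 2. The replicate number as a block gave 13 higher and 0 lower, and it changed no call of the 3 genes or ratios. The labels do not say that a number pairs libraries. Same-number deviations correlated at -0.10, 0.25 and -0.17, and those of unlike number at -0.25 to 0.19, so these values do not decide it. The Ucn to Cartpt ratio kept its direction in 9 of 9 alternatives (0.16 to 0.62). Cck to Cartpt was 0.46 under quantile normalization, and ranged from -0.39 to 0.30 with 1 library left out, turning without IP 1 and without Input 2 (0.02). Cck to Ucn ranged from -0.60 to 0.13, turning without IP 1. The cause was not tested. Of these alternatives, leaving out IP 1 and Input 3 without centring, and Input 3 with centring, were added after seeing the data.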
